A study of Mus musculus with 5 samples.

Results

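RNA-seq levels of 10 genes were examined in 2 types of cultured mouse cells: the transcription factor genes Myc, Mycn and Mycl, the RNA-binding protein genes Lin28a and Lin28b, the chromatin protein genes Hmga1 and Hmga2, and the mRNA-binding protein genes Igf2bp1, Igf2bp2 and Igf2bp3. The members were chosen by symbol, with earlier results of these data known, and all 10 were found among the 25415 genes of the files. Neural stem cells (NSCs, 2 samples) were primary cells isolated from mouse embryonic cortex, taken at passages 5 to 8 and grown as a monolayer on poly-l-ornithine and laminin in medium with 20 ng/ml EGF, 20 ng/ml bFGF, heparin and 2% B27. STO cells (3 samples) are an established line of mouse SIM embryonic fibroblasts, resistant to thioguanine and ouabain, which were used after more than 30 passages and kept in medium with 10% FBS. Both are labelled C57BL/6, and neither carried a treatment or an altered allele in the labels. Cell type, origin, passage and medium differ together between the groups, so their parts in a difference cannot be told apart. The labels do not say that replicates came from separate cultures, so p-values measure the spread between these samples, which may be technical.

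Values are FPKM, fragments per kilobase of transcript scaled to the depth of the library, summed over the transcripts of a gene. The confidence intervals that the authors deposited imply 15223341 to 22271895 fragments a sample. All 8 NSC markers examined, among them Nes, Sox2 and Fabp7, were lower in STO cells, where their summed level was 0.0509 to 0.0746 FPKM against 3848 to 4063 FPKM in NSCs. Of 8 fibroblast markers, the 7 tested were higher in STO cells, and Lum, near 0 in both cell types, was not tested. The NSC samples also held markers of other neural cells. Astrocyte and oligodendrocyte markers, led by Mbp and Aldh1l1, summed to 193 to 198 FPKM in NSCs and 1.36 to 1.41 FPKM in STO cells, with 7 of 8 lower in STO cells. Neuron markers summed to 120 FPKM in both NSC samples and to 12.3 to 12.9 FPKM in STO cells, with 4 of 8 lower, 3 not tested and Tubb3 not called. Map2 alone gave a mean of 101 FPKM of the NSC sum, and the 3 neuron markers not tested were at a mean of 0.0806 to 0.564 FPKM there. Microglia and endothelial markers summed to at most 0.551 FPKM in NSCs and 10.3 FPKM in STO cells. Only 1 of them, Tmem119, was tested, and it alone gave a mean of 9.66 FPKM of the STO sum. Pluripotent cell markers summed to at most 1.03 FPKM in either cell type, and Pou5f1 was at 0 in every sample. Whether other neural cells were present in the NSC samples, and their part in the levels given here, was not tested. In bulk RNA fewer cells of a type and less RNA per cell cannot be told apart.

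The 4 families are joined by the let-7 microRNAs. MYC proteins pair with MAX on DNA and raise the transcription of genes for growth and ribosome production. LIN28 proteins bind let-7 precursors and block their maturation, let-7 in turn represses the mRNAs of HMGA2, the IGF2BPs and LIN28 itself, and the IGF2BPs hold target mRNAs, among them those of MYC and IGF2, in stable or translated form. HMGA proteins bend AT-rich DNA, and HMGA2 is known to raise Igf2bp2 transcription. In mouse development the LIN28, HMGA2 and IGF2BP1 genes are known as fetal genes that are silenced as let-7 rises.

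The mature let-7 sequences are shown because their shared seed is the part that reads the target mRNA. From RefSeq (GRCm38.p6), 9 distinct mature sequences of 11 genes named Mirlet7 or Mir98 were kept. Sequences of the 3′ arm, and any on a single chromosome set aside beforehand, were left out, and Mirlet7a-2 was not among the 11 genes. All 9 carried the same seed at bases 2 to 8, in capitals below. Those of 4 genes follow, 5′ to 3′. The let-7g hairpin lies within Wdr82, and the let-7f-2 and miR-98 hairpins lie within Huwe1.
let-7a: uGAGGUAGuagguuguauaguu
let-7g: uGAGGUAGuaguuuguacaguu
let-7f: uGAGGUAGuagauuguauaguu
miR-98: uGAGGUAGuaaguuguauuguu

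The complement of this seed, CTACCTC, was counted on the transcript strand in the longest annotated 3′ UTR of each gene (GENCODE vM1, mm9). Among 19872 genes with a 3′ UTR, 8.81% held at least 1 match, 1.02% at least 2 and 0.131% at least 3. Of the members, 7 of 10 held a match. Hmga2, Igf2bp1 and Lin28b had 4 each, Lin28a had 2, Hmga1, Igf2bp2 and Igf2bp3 had 1 each, and the 3 Myc genes had none of this match. Other types of site were not counted. Longer UTRs hold more matches by length alone, so each member was set beside UTRs 0.8 to 1.25 times its own length. At least as many matches were found in 0.141% of 2131 UTRs like that of Hmga2 (3014 bases), in 0.282% of 1064 like that of Lin28b (4445 bases), in 0.263% of 380 like that of Igf2bp1 (6337 bases) and in 2.42% of 2318 like that of Lin28a (2775 bases). Each member counts in its own set, so with the member included these are 3, 3, 1 and 56 UTRs. For Igf2bp1 the 1 UTR is its own. For the 3 members with 1 match, 9.40% to 14.1% of UTRs of like length had at least 1. A match is a description of the sequence and not a measured binding site.

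The 22-base windows around the matches in Hmga2 and Igf2bp1 are shown because these 2 genes had the largest rises among the members. They are written 5′ to 3′ on the transcript strand, the minus strand of mm9, with the match in capitals. The window of the first Hmga2 match lay at chr10:119801280-119801301, with the match itself starting 58 bases after the stop codon. The window of the fourth Hmga2 match lay at chr10:119798747-119798768, and that of the first Igf2bp1 match at chr11:95823092-95823113.
Hmga2 match 1: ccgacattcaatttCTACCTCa
Hmga2 match 2: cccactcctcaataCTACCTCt
Hmga2 match 3: tgatttgcaaggaaCTACCTCc
Hmga2 match 4: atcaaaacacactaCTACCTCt
Igf2bp1 match 1: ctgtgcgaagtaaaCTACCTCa
Igf2bp1 match 2: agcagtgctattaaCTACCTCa
Igf2bp1 match 3: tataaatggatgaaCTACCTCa
Igf2bp1 match 4: cttttggttttaatCTACCTCt

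limma was fitted to log2(FPKM + 1) to compare STO cells with NSCs. The 12293 genes whose mean reached 1 FPKM in NSCs or STO cells were tested. Of the members 8 were tested, and Lin28a and Lin28b were too low. All 8 passed an adjusted p-value of 0.05, 4 higher (Hmga2, Igf2bp1, Igf2bp2 and Mycn) and 4 lower (Mycl, Igf2bp3, Hmga1 and Myc) in STO cells, of which Hmga1 lost its call when the Hmga1b rows of the same locus were added. Over all tested genes 85.6% passed, 41.9% higher and 43.7% lower, so passing the threshold sets these genes apart from few others. The sizes tell more. The median absolute difference of all tested genes was 0.74 on the log2 scale. Hmga2 and Igf2bp1 lay in the outer 10% of all tested genes by absolute difference (9.49% and 9.51% of genes differed more), Mycl lay further in (15.7%), and Mycn was near the middle (54.7%). Igf2bp1 was at 0 in both NSC samples and entered the test by its STO level alone. Its size and rank therefore depend on the 1 added to each FPKM. With a difference of at least 1 on the log2 scale also required, 4 members (Hmga2, Igf2bp1, Mycl and Igf2bp3) remained, 2 higher and 2 lower, against 38.4% of all tested genes (17.1% higher and 21.3% lower). In each of the 8, no STO value overlapped an NSC value, 4 higher and 4 lower, as for 89.9% of tested genes (43.9% higher and 46% lower).

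**Figure D1:**
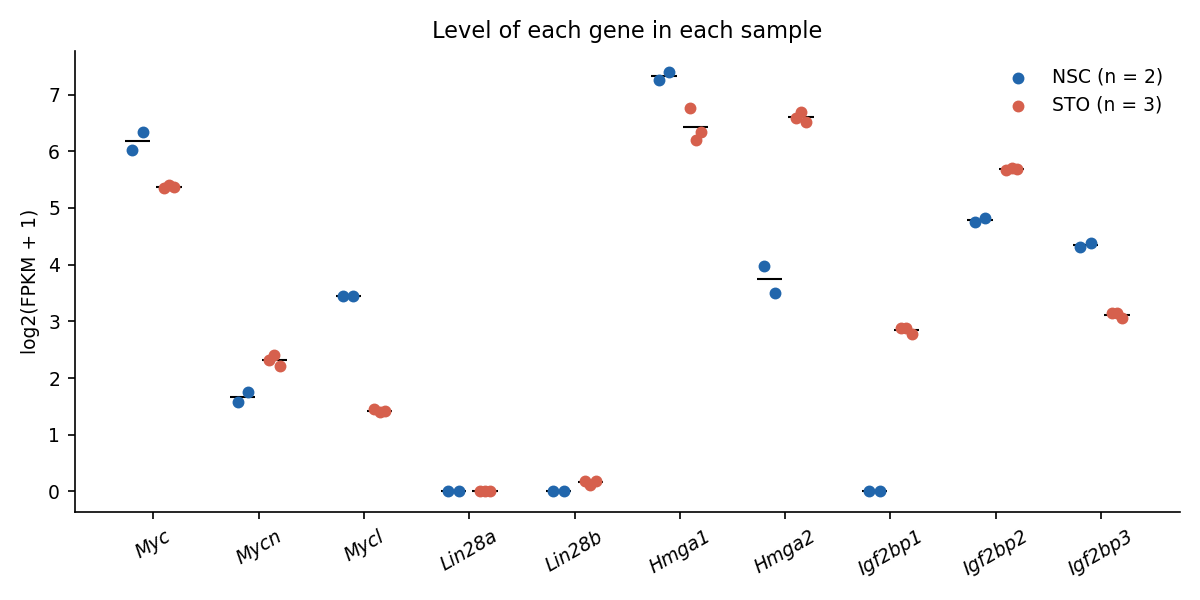
Level of the 10 genes as log2(FPKM + 1) in each NSC sample (blue, n = 2) and STO sample (red, n = 3), with black lines at the group means. Hmga2 rises from 12.6 to 96.0 FPKM and Igf2bp1 from 0, while Myc, Mycl, Hmga1 (without Hmga1b) and Igf2bp3 are lower in STO cells and both Lin28 genes are at or near 0 everywhere.

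**Figure D2:**
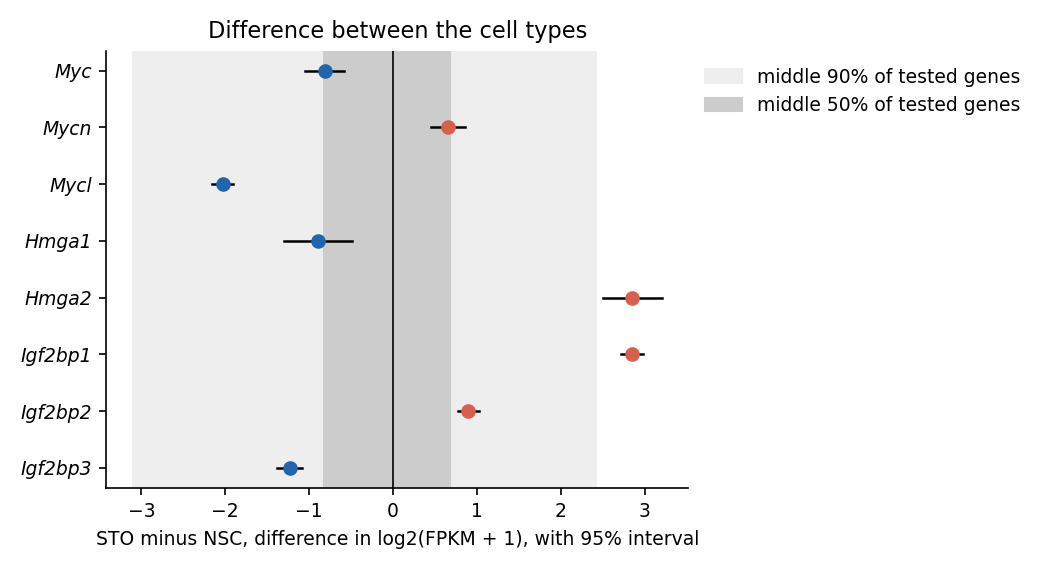
Difference of the 8 tested genes between STO cells and NSCs in log2(FPKM + 1), as points with 95% intervals, over the middle 50% (-0.83 to 0.68) and 90% (-3.10 to 2.42) of all tested genes. Hmga2 and Igf2bp1, at 2.85 each, are the only points outside the wider band. The Igf2bp1 value depends on the 1 added to FPKM, because its NSC level was 0.

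In the MYC family, Myc and Mycl were lower in STO cells and Mycn was higher. Myc, the broadly expressed member, lies on the plus strand of chromosome 15 (mm9 61816896 to 61821916). Its level was 64.3 and 80.4 FPKM in the NSC samples and 39.9, 41.2 and 40.2 FPKM in the STO samples. The STO values lay close together and below both NSC values, which were further apart. The difference was -0.82 ± 0.096 (SE; limma adjusted p = 0.000262) in log2(FPKM + 1), or a mean 1.79 times higher in NSCs. Both of its listed transcripts were detected, and NM_001177352 gave 70.0% to 77.0% of the Myc FPKM in all 5 samples, with no clear change between cell types.

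Mycl, the member named from lung cancer, lies on chromosome 4 (plus strand, 122673174 to 122679723). The NSC samples had 9.95 and 9.94 FPKM and the STO samples 1.73, 1.63 and 1.67 FPKM. Within each cell type these samples were nearly equal, and the mean was 5.93 times higher in NSCs (log2 difference -2.03 ± 0.049, SE; limma adjusted p = 1.20e-07). Of its 2 transcripts, NM_001303121 gave 60.3% and 46.4% of the Mycl FPKM in NSCs and 69.0%, 66.3% and 75.6% in STO cells. Mycn, the member best known from neural progenitors and neuroblastoma, lies on the minus strand of chromosome 12 (12942899 to 12948642). Its level was 1.98 and 2.36 FPKM in NSCs and 4.01, 4.34 and 3.62 FPKM in STO cells. All STO values were above both NSC values, so the member associated with neural tissue was the only one of the family that was higher in the fibroblast line (difference 0.65 ± 0.085, SE; limma adjusted p = 0.000421; mean ratio 1.84). It was also a low level in both, from 162 to 318 implied fragments a sample.

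FPKM is scaled by length, so members of a family can be added and set beside each other within a sample. The family sum was 76.2 and 92.7 FPKM in NSCs and 45.5 to 47.1 FPKM in STO cells. Myc gave 85.5% ± 1.7 (SD, n = 2) of it in NSCs and 87.7% ± 0.57 (SD, n = 3) in STO cells. Behind Myc the order changed: Mycl gave 11.9% ± 1.7 and Mycn 2.57% ± 0.042 in NSCs (SD, n = 2), against 3.64% ± 0.17 and 8.65% ± 0.63 in STO cells (SD, n = 3). The shares of Mycl and Mycn did not overlap between the cell types. With 2 against 3 samples the exact two-sided permutation test cannot give a p-value below 0.2, which it gave for each share of this family.

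The LIN28 genes were at or near 0 in both cell types. Lin28a, on chromosome 4, was listed at 0 in both NSC samples and in STO samples 1 and 3, and STO sample 2 had 0.0111 FPKM, which corresponds to 1 fragment. Lin28b, on chromosome 10 (45096425 to 45190007), was listed at 0 in both NSC samples and had 0.139, 0.0788 and 0.135 FPKM in the STO samples, from 17, 11 and 25 implied fragments. All 3 STO samples were thus above the NSC samples, but at a level that 51.1% of all genes fell below in STO cells. Neither gene entered the test. When no gene with a value above 0 was left out, Lin28b had a difference of 0.16 in log2(FPKM + 1) with a limma adjusted p = 0.00465 and Lin28a one of 0.0053 (limma adjusted p = 0.761). No fold is given against a group listed at 0.

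In the HMGA family Hmga2 rose, and the value for Hmga1 depended on how fragments were divided between 2 gene names. Hmga2 lies on the minus strand of chromosome 10 (119798324 to 119913525). Its level was 14.8 and 10.4 FPKM in NSCs and 94.97, 103 and 90.2 FPKM in STO cells. Every STO value was more than 6 times the higher NSC value, and the mean was 7.62 times higher (difference 2.85 ± 0.14, SE; limma adjusted p = 3.58e-06). The implied fragments rose far less, from 986 and 839 in NSCs to 1808, 1893 and 1947 in STO cells. Why they and the FPKM differ was not tested, so the size of the rise is less sure than its direction. In STO cells Hmga2 was the most abundant of the 10 genes, although its range overlapped that of Hmga1 and it was below the Hmga1 locus when Hmga1b, described next, was counted with it, and 97.4% of all genes were lower. All of it was assigned to NM_010441, and the other listed transcript was at 0 in each sample.

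Hmga1 lies on the plus strand of chromosome 17 (27693519 to 27700617) and was the most abundant of the 10 genes in NSCs, with 151 and 168 FPKM. The STO samples had 107, 72.9 and 79.6 FPKM. All were below the NSC samples, but they spread widely (86.6 ± 18.3 FPKM, SD, n = 3), and the difference was -0.89 ± 0.16 (SE; limma adjusted p = 0.00232). The files list 14 Hmga1 transcripts at this locus, of which 10 were at 0 in all samples, and 2 transcripts of Hmga1b at chromosome 17, 27693598 to 27700616, within the Hmga1 locus. Rows that share nearly all of their sequence cannot be told apart with certainty by short reads. The Hmga1b rows were listed at 0 in both NSC samples and at 28.2, 71.9 and 65.6 FPKM in the STO samples, which was 20.8%, 49.7% and 45.2% of the locus. The STO sample with the least Hmga1b had the most Hmga1. Summed over both sets of rows, the locus had 151 and 168 FPKM in NSCs and 136, 145 and 145 FPKM in STO cells, a difference of -0.17 ± 0.070 (SE), with a 95% interval from -0.34 to 0.0022, which no longer passed the test (limma adjusted p = 0.0604). The call was also lost without NSC replicate 2 (-0.82, limma adjusted p = 0.0675).

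**Figure D3:**
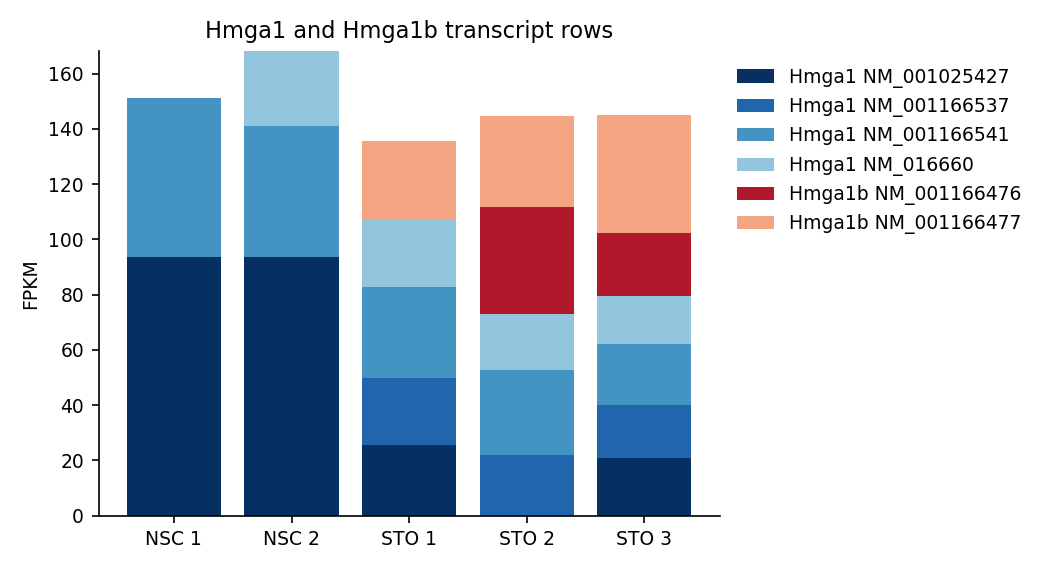
FPKM of the Hmga1 (blue) and Hmga1b (red) transcript rows above 0, stacked for each of the 5 samples. The totals of 136 to 145 FPKM in STO cells are near the 151 and 168 FPKM of the NSCs, while the rows named Hmga1b are filled only in the STO samples.

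Within the family, Hmga2 gave 8.92% and 5.81% of the summed HMGA FPKM in the NSC samples and 46.9%, 58.5% and 53.1% in the STO samples. The ranges did not overlap. The sum itself was 172 ± 8.9 FPKM (SD, n = 2) in NSCs and 183 ± 17 FPKM (SD, n = 3) in STO cells, ranges that did overlap (exact two-sided permutation p = 0.6). Both results left out Hmga1b. With its rows counted, Hmga2 gave 41.2%, 41.5% and 38.3% in the STO samples, still above the NSC samples but below the Hmga1 locus, and the STO sums were 231, 248 and 235 FPKM, above both NSC sums.

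In the IGF2BP family each member took its own course. Igf2bp1, which binds and stabilises Myc mRNA, lies on the minus strand of chromosome 11 (95818478 to 95867258). It was listed at 0 in both NSC samples, with no implied fragment, and had 6.38, 6.36 and 5.88 FPKM in the STO samples, from 787, 858 and 974 fragments. The gene was thus seen in every STO sample and in neither NSC sample. Its difference in log2(FPKM + 1) was 2.85 ± 0.054 (SE; limma adjusted p = 4.05e-08), a value set by the pseudocount because the NSC level was 0, and it was 5.98 with a pseudocount of 0.1. Because Igf2bp1 entered the test by its STO level alone, the p-value is not separate support for this difference.

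Igf2bp2, on the minus strand of chromosome 16 (22059082 to 22163372), was the most abundant member of the family in both cell types. Its level was 26.1 and 27.2 FPKM in NSCs and 49.7, 51.5 and 50.4 FPKM in STO cells. The samples of a cell type lay within 2 FPKM of each other, and the mean was 1.90 times higher in STO cells (difference 0.90 ± 0.050, SE; limma adjusted p = 6.22e-06). Igf2bp3, on the minus strand of chromosome 6 (49035217 to 49164953), went the other way, with 18.8 and 20.0 FPKM in NSCs and 7.85, 7.86 and 7.31 FPKM in STO cells. The mean was 2.53 times higher in NSCs, and the groups did not overlap (difference -1.23 ± 0.059, SE; limma adjusted p = 2.98e-06).

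The family thus had 2 members in NSCs and 3 in STO cells. Igf2bp2 gave 57.9% ± 0.24 and Igf2bp3 42.1% ± 0.24 of the family FPKM in NSCs (SD, n = 2). In STO cells Igf2bp2 gave 78.5% ± 0.75, Igf2bp3 11.9% ± 0.39 and Igf2bp1 9.63% ± 0.36 (SD, n = 3). The sum was 44.9 and 47.2 FPKM in NSCs and 63.6 to 65.7 FPKM in STO cells. The shares and the sums did not overlap between the cell types, each with the smallest p-value the exact two-sided permutation test allows (0.2).

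**Figure D4:**
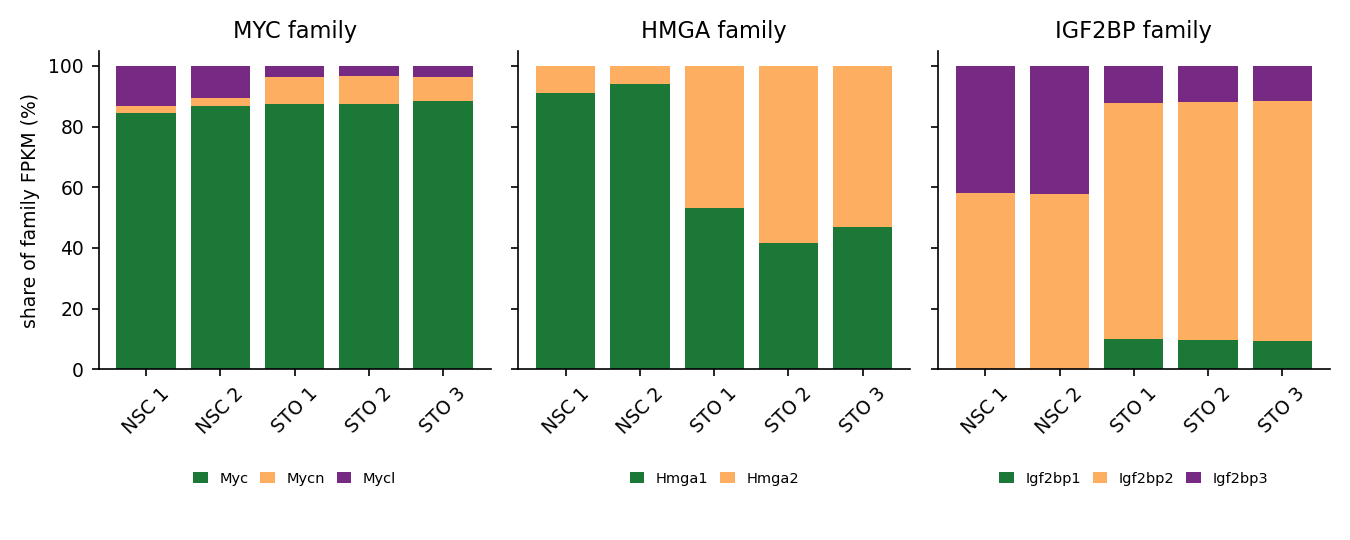
Share of each gene in the summed FPKM of its family (%), stacked for the 5 samples in 3 panels, with Hmga1b left out. Hmga2 goes from 5.81% to 8.92% in NSCs to 46.9% to 58.5% in STO cells, Igf2bp3 from 42.1% to 11.9% on average, and Myc stays at 84.3% to 88.4% of its family.

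Ordered by mean level, the NSC samples ran from Hmga1 through Myc, Igf2bp2, Igf2bp3, Hmga2 and Mycl to Mycn, with Lin28a, Lin28b and Igf2bp1 at 0, and no neighbours above 0 overlapped. In STO cells the order was Hmga2, Hmga1, Igf2bp2, Myc, Igf2bp3, Igf2bp1, Mycn, Mycl, Lin28b and Lin28a, and the one overlap of ranges was that of Hmga2 with Hmga1 (Hmga1b not counted). Across the 5 samples, the gene nearest to each tested member by Euclidean distance in log2(FPKM + 1), out of 12292 others, was Lrrfip1 for Myc, Pcdhb16 for Mycn, Camta1 for Mycl, Sin3b for Hmga1, Plp2 for Hmga2, Hp for Igf2bp1, Ano6 for Igf2bp2 and Galnt11 for Igf2bp3. The distances ran from 0.095 for Galnt11 to 0.45 for Plp2. With 2 cell types such likeness rests mostly on the 2 group means.

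The let-7 microRNAs themselves were not measured by these libraries. All 12 let-7 and miR-98 hairpin rows were listed at 0 in every sample, as short rows can be whatever their true level. For 5 of them a longer measured transcript spans the hairpin. Huwe1, an E3 ubiquitin ligase gene that holds let-7f-2 and miR-98 and whose protein acts on MYC proteins, had 28.2 and 29.7 FPKM in NSCs and 60.1, 65.9 and 59.9 FPKM in STO cells (difference 1.07 ± 0.064, SE; limma adjusted p = 8.72e-06). Wdr82, which spans let-7g, had 51.4 ± 1.5 FPKM (SD, n = 2) in NSCs and 49.1 ± 0.93 FPKM (SD, n = 3) in STO cells and was not called (limma adjusted p = 0.254). Lncppara, which spans let-7b and let-7c-2, had at most 0.320 FPKM in any sample. Among all 11649 tested genes with an annotated 3′ UTR, those with 0, 1, 2 and at least 3 seed matches had median differences of -0.028, -0.0059, 0.12 and 0.24, over 10417, 1095, 118 and 19 genes. The share higher in STO cells was 41.8%, 43.3%, 47.5% and 57.9% in that order, and the share lower was 43.8%, 43.8%, 37.3% and 42.1%. All 19 genes of the last group were called, and the median UTR length also rose, from 1137 to 2122, 3198 and 4378 bases, so the number of matches and the length cannot be told apart here. The 19 genes include Hmga2 and Igf2bp1 themselves. The one with most matches, the orphan receptor gene Nr6a1 with 8, was low in both cell types and higher in STO cells (0.264 ± 0.018 FPKM, SD, n = 2, against 1.45 ± 0.069, SD, n = 3; limma adjusted p = 3.21e-06). Nr6a1 entered the test by its STO level alone, so this p-value is not separate support.

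Genes around the axis were read from lists, which were chosen with earlier results of these data known. Each is given by its count of calls and its median, beside a median of -0.023 and calls of 41.9% higher and 43.7% lower for all tested genes. Of 10 partners in the MAX network, 8 were tested, 3 were higher (Mlxip, Mnt and Mga) and 5 lower in STO cells, with a median of -0.27. Max, the obligate partner of MYC, was lower (41.6 ± 1.8 FPKM, SD, n = 2, against 24.9 ± 1.3, SD, n = 3; limma adjusted p = 5.95e-05). So were Mxi1 and Mxd4, repressors that compete for MAX (differences -0.86 and -0.84), while Mlxip, a glucose-sensing partner of MLX, had the largest rise (1.65). Of 12 genes for MYC turnover and cofactors, 5 were higher, 5 lower and 2 not called (median 0.12). The largest differences were those of Pim1, a kinase (1.51), Trrap, a scaffold of acetyltransferase complexes that MYC recruits (1.36), Huwe1 (given above) and Zbtb17, which encodes the MYC partner MIZ1 (-0.83).

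Of 20 textbook MYC target genes, 19 were tested, and 12 were higher, 3 lower (Srm, Ldha and Ccnd2) and 4 not called in STO cells, where Myc itself was lower. Their median was 0.42. Odc1, the first enzyme of polyamine synthesis, rose from 58.7 ± 2.1 FPKM (SD, n = 2) to 130 ± 3.7 (SD, n = 3), with a limma adjusted p = 3.39e-06. Cad, which starts pyrimidine synthesis, rose by a similar amount (1.09). Srm, the next polyamine enzyme, went the other way (-1.07), and so did the cyclin gene Ccnd2, from 411 ± 11 FPKM (SD, n = 2) to 27.04 ± 3.0 (SD, n = 3), with a limma adjusted p = 1.36e-07. The summed level of the list overlapped between the cell types, at 3136 to 3248 FPKM in NSCs and 3031 to 3275 FPKM in STO cells. MYC and MAX bind the E-box CACGTG, which reads the same on both strands. It was sought in RefSeq promoters (GRCm38.p6) of 300 bases in all, most of them before the start. E-boxes elsewhere were not counted. Of these target genes with a promoter, 5 of 16 held it (Ldha, Cdk4, Nme1, Hspd1 and Mybbp1a). It was found in 8.09% of 27025 genes and 11.9% of the 9798 tested genes with one. Among the 8 members with one, Lin28b and Igf2bp3 held it.

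Of 17 enzymes and cofactors of let-7 processing and decay, 9 were higher, 6 lower and 2 not called (median 0.24). Tut4, which adds uridines to let-7 precursors held by LIN28, was higher in STO cells (1.03), and Dis3l2, the exonuclease that degrades such tailed precursors, was lower (-1.26). The neural RNA-binding genes Msi1 and Msi2 fell most (-3.62 and -2.81), from 15.9 and 38.2 FPKM in NSCs to 0.372 and 4.61 FPKM in STO cells. Of 20 other textbook let-7 targets, 18 were tested, 8 higher, 9 lower and 1 not called, with a median of -0.047 near that of all genes. The list had members far out on both sides. Cdk6, a G1 kinase, rose from 0.429 ± 0.045 FPKM (SD, n = 2) to 23.8 ± 3.7 (SD, n = 3; limma adjusted p = 3.86e-07), and its usual cyclins Ccnd1 and Ccnd2 fell (-2.42 and -3.88), as did E2f2, which drives S phase entry (-1.85). Cdk6 entered the test by its STO level alone. The lists share genes. Ccnd2 counts in this list and in that of the MYC targets, Trim71 and Dicer1 in both let-7 lists, and Igf1r and Plagl2 in this list and in that of the growth genes that follow.

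Of 17 growth genes linked to HMGA2 and the IGF2BPs, 13 were higher, 2 lower (Mapk4 and Cdkn2b) and 2 not called (Cdkn2a and Elavl1), with a median of 0.74. Igf2, a fetal growth factor and the mRNA that named the IGF2BPs, had 0.302 ± 0.14 FPKM (SD, n = 2) in NSCs and 107 ± 5.65 (SD, n = 3) in STO cells (difference 6.38 ± 0.083, SE; limma adjusted p = 1.00e-08). Igf2 entered the test by its STO level alone. Its imprinted neighbour H19, a noncoding RNA, rose from 31.0 ± 8.0 to 817 ± 62 FPKM (SD, n = 2 and n = 3; difference 4.70), and the zinc finger gene Plagl1 rose by 2.88. Mapk4, an mRNA known to be bound by IGF2BP1, fell, from 7.64 FPKM in NSCs to 0 in all STO samples (-3.11), and so did the cell cycle inhibitor gene Cdkn2b (-2.30). Of 7 genes for HMGB and HMGN chromatin proteins, which share a name but not the AT-hook with HMGA, 1 was higher and 6 were lower in STO cells (median -0.61). Hmgb1 was the one that rose (0.79), and Hmgn2 fell most, from 302 ± 32.5 FPKM (SD, n = 2) to 41.9 ± 3.6 (SD, n = 3; limma adjusted p = 6.36e-07), with Hmgb3 (-1.42) and Hmgb2 (-1.13) after it.

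**Figure D5:**
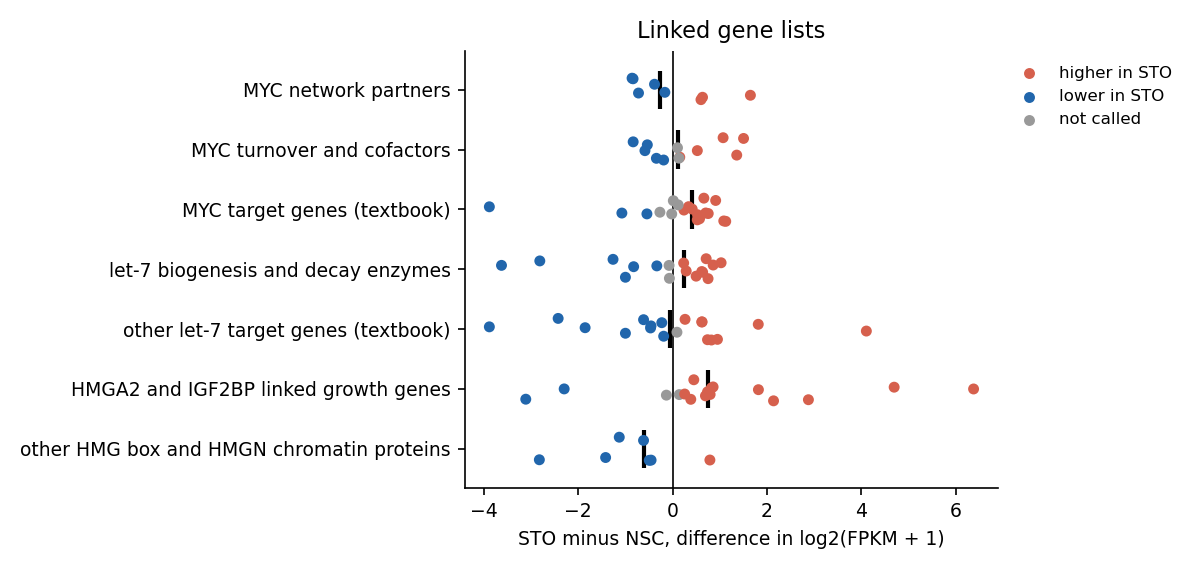
Difference between STO cells and NSCs in log2(FPKM + 1) for each tested gene of the 7 lists (red, higher; blue, lower; grey, not called), with black bars at list medians. The growth genes linked to HMGA2 and the IGF2BPs have the highest median (0.74) and the HMGB and HMGN genes the lowest (-0.61). The lists were chosen with earlier results of these data known, so the order of their medians is a description and not a test.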

How the data were processed

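Stranded poly-A libraries were sequenced from both ends. The authors trimmed the reads, aligned them to mm9 with Hisat2 (given as version 4.8.2), ran Cufflinks 2.2.1 on RefSeq transcripts, and deposited FPKM values with confidence bounds, also in FPKM, for 40201 transcripts a sample. Whether counting used strand is not given in the sources used here. Depth is divided out. Implied fragments were taken as the squared ratio of the value to its Poisson SD, with 2 SD between value and upper bound. Symbols came from RefSeq identifiers (GRCm38.p6, names only) for 99.4% of transcripts. Transcripts of a symbol with overlapping loci were summed into 25415 genes, and no member had a failed estimate.

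The fit used limma 3.58.1 (lmFit and trended eBayes, under R 4.3.3) on log2(FPKM + 1) of all 5 samples for 12293 genes with a mean of at least 1 FPKM in either cell type. The p-values were adjusted by Benjamini-Hochberg and called under 0.05. This scale understates changes of low genes. In a simulation of these 12293 genes, 94 of 100 changed by 1 and 61 of 100 changed by 0.5 were called, with 8 false calls. No other genes were changed in it, whereas 85.6% of tested genes were called in the data. Its rates therefore need not hold for the data. The 10 members and the lists were chosen with earlier results of these data known. All members were named, and from each list up to 4 called genes with the largest differences and no overlap, besides a few picked after their values were seen (Ldha, Mnt, Mga, Cdkn2a, Cdkn2b, Elavl1, Nr6a1 and Wdr82, some to complete a count). Other work used Python 3.11.15 and scipy 1.17.1.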

Additional observations from a re-analysis of the deposited data

How the results depend on the processing

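Alternatives changed the pseudocount, the filter, the scaling, the trend, the transcripts used and the replicates. Summing Hmga1 with Hmga1b and leaving out genes with a failed estimate were chosen after the data were seen. Of the 8 tested members, 7 kept their direction and their side of the threshold in every alternative fit, apart from the fold minimum below and from Mycn at a minimum of 5 FPKM, where it was not tested. Hmga1 lost its call with the most abundant transcript alone (-3.50, limma adjusted p = 0.0674), when summed with Hmga1b (-0.17, limma adjusted p = 0.0604) and without NSC replicate 2 (limma adjusted p = 0.0675); leaving out 1 replicate at a time gave it -1.06 to -0.78. Requiring a difference of at least 1 left 2103 genes higher, 2617 lower and 4 members, since Myc (-0.82), Mycn (0.65), Hmga1 (-0.89) and Igf2bp2 (0.90) differed by less. With the most abundant transcript only, the rise in the Myc share of its family reversed (-2.01 percentage points against 2.17), and the share differences moved to 7.76 for Mycn, -5.75 for Mycl, -74.8 for Hmga1 and 74.8 for Hmga2 (main values 6.08, -8.25, -45.5 and 45.5). The Myc share difference was 0.97 without NSC replicate 1 and 3.37 without NSC replicate 2. A fit with 1 NSC sample assumes that it varies like the STO samples. The counts of each of the 7 gene lists stayed within 1.5 times wherever they were recomputed. Both cell types have replicates 1 and 2, and nothing says that the numbers pair them; the deviations of same-numbered samples correlated at 0.0075 and 0.061. A replicate block gave 4994 higher and 5250 lower calls, against 5153 and 5375 without it, and changed no member call (Hmga1 -0.84, limma adjusted p = 0.0047). Low levels are limited by depth, so Lin28a and Lin28b cannot be ordered in NSCs.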
